A study of Mus musculus with 8 samples.

Results

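The genes described here are 7 genes of major histocompatibility complex (MHC) antigen presentation: B2m, H2-K1 and H2-D1 of class I, and H2-Aa, H2-Ab1, H2-Eb1 and Cd74 of class II. They were found by their symbols, and all 7 were among the 5828 genes in the deposited tables and in each of the 4 comparisons. The samples were uteri of 4 Ezh2cKO females (KO below; genotype EZ fl/fl; Prcre/+) and 4 wild-type females (WT; EZ fl/fl without Cre), of a mixed C57BL/6 and 129SvEv strain. Both genotypes carried the floxed Ezh2 alleles. KO females also carried a Cre placed in the progesterone receptor locus, which is known to be active in uterine epithelium, stroma and muscle. All females were ovariectomized at postnatal day 71 ± 4, their uteri were taken at day 112 ± 11, and each of 4 litters gave 1 KO and 1 WT female. RNA of 10 µm frozen sections was captured by Visium, a slide of barcoded spots that keeps the position of each transcript. The authors named each spot epithelium or stroma, and since spots are wider than a cell, 1 spot may mix cells of several kinds.

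The deposited values pool all animals of a genotype, so each gene had 1 value in each of 4 pools: KO epithelium, WT epithelium, KO stroma and WT stroma. No spread between animals could be had, and the intervals below cover counting error only. Ezh2 itself was not analysed here. The recovered totals over listed genes were 1552958 UMIs (unique molecular identifiers, 1 per captured RNA molecule) for KO epithelium against 1428541 for WT epithelium, and 947663 for KO stroma against 416747 for WT stroma. They sum 5823, 5821, 2752 and 1782 genes in that order, so part of the difference between totals lies in the genes listed. Levels are given as raw UMIs and as scaled UMIs, which are UMIs divided by the relative size of the pool with the mean of the 4 sizes set to 1. Since a pool is bulk RNA of many cells, fewer cells of a type and less RNA per cell cannot be told apart.

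Class I molecules sit on nearly all nucleated cells and show T cells peptides cut from proteins made inside the cell. Each pairs a heavy chain, such as those of H2-K1 and H2-D1, with the invariant light chain B2m. Class II molecules pair an alpha with a beta chain, H2-Aa with H2-Ab1 and H2-Ea with H2-Eb1, mainly on macrophages, dendritic cells and B cells, and show peptides taken up from outside. The invariant chain Cd74 holds the class II groove shut until a peptide is loaded. C57BL/6 mice carry a null H2-Ea allele, so that their H2-Eb1 chain lacks its partner at the surface. Interferon gamma induces both classes, class II through the coactivator Ciita and class I in part through Nlrc5. Ezh2 is the catalytic subunit of Polycomb repressive complex 2 and methylates histone H3 to H3K27me3, a mark of silenced genes, and MHC genes are among its known targets in some tumours.

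The promoters of both classes share a module known as SXY, in which an X2 element related to the cAMP response element lies before a Y element, an inverted CCAAT box. Promoters of 5 of the 7 genes were taken from RefSeq starts on GRCm38.p6. H2-Ab1 had none listed there, and Cd74 was left out of the search. For the 5 genes, the 180 bases before the start are shown so that this shared layout can be seen. They lie at chr2:122147507-122147686 (plus strand) for B2m, chr17:34000334-34000513 (minus) for H2-K1, chr17:35262914-35263093 (plus) for H2-D1, chr17:34287824-34288003 (minus) for H2-Aa and chr17:34305687-34305866 (plus) for H2-Eb1. Of the 2 starts listed for H2-K1, the one farthest downstream was taken. Capitals mark matches on either strand to TGACG, the core letters of X2, and to CCAAT, the Y element, which reads ATTGG on the other strand. They also mark AGCAACNG, the letters of an X1 box, and the interferon and NF-kappaB letters GAAANNGAA and then GGGGNTTCC.
B2m: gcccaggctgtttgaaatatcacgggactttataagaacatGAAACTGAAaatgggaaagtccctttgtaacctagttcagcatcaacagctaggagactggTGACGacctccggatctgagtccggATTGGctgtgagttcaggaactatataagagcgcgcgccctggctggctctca
H2-K1: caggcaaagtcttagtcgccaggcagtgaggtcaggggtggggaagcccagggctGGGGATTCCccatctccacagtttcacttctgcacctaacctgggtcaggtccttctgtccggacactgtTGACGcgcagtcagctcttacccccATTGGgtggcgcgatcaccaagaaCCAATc
H2-D1: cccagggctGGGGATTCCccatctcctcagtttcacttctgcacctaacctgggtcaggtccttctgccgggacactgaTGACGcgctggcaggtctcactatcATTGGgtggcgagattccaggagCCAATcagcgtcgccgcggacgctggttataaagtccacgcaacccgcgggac
H2-Aa: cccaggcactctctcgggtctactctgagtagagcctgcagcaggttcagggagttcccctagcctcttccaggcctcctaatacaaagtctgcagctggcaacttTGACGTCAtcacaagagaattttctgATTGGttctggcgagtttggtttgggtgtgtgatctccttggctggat
H2-Eb1: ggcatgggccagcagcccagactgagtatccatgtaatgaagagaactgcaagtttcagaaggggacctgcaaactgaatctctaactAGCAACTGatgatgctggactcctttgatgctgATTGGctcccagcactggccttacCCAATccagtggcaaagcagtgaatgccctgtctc

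The letters TGACG were followed by ATTGG after 20 bases in B2m, H2-K1 and H2-D1 and after 21 bases in H2-Aa. In the genes shown, the pair was searched in the reading direction only. All 32851 promoters of the table were read on both strands, from 250 bases before to 50 after the start. Of these, 0.575% held this pair with 15 to 30 bases between. TGACG alone was in 20.8% and CCAAT in 37.4%. H2-K1 and H2-D1 also held GGGGNTTCC, the letters of an NF-kappaB site, which 1.69% of promoters held. B2m held GAAANNGAA, the letters of an interferon response element, found in 8.56%. H2-Eb1 held ATTGG and AGCAACNG, found in 5.14%, but not TGACG in this window. In H2-Aa the TGACG match overlapped a second one on the other strand. These matches describe letters and not bound sites, and the TGACG search was chosen with the data in view.

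The first question was how the 7 genes differed between KO and WT epithelium. Within the class I group, all 3 genes had pooled ratios near 1.5, with counting intervals above 1. B2m, the light chain of every class I molecule, had 1569 UMIs (1183 scaled) in KO epithelium and 906 UMIs (740.3 scaled) in WT epithelium, a ratio of 1.60 (95% interval 1.47 to 1.74). H2-K1, a classical heavy chain, had 1592 UMIs (1200.4 scaled) in KO epithelium against 990 UMIs (809 scaled) in WT epithelium, a ratio of 1.48 (1.37 to 1.61). H2-D1, the other classical heavy chain, had 1036 UMIs (781 scaled) in KO epithelium against 650 UMIs (531 scaled) in WT epithelium, a ratio of 1.47 (1.33 to 1.62). Their summed scaled level was 3165 in KO epithelium and 2080.5 in WT epithelium, a ratio of 1.52 (1.45 to 1.60).

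The class II genes were less uniform in epithelium. H2-Aa, the alpha chain of the I-A molecule, had 350 UMIs (264 scaled) in KO epithelium and 214 UMIs (175 scaled) in WT epithelium, a ratio of 1.51 (1.27 to 1.80). H2-Eb1, the beta chain of I-E, had 333 UMIs (251 scaled) in KO epithelium against 216 UMIs (177 scaled) in WT epithelium, a ratio of 1.42 (1.20 to 1.70). Cd74 had 588 UMIs (443 scaled) in KO epithelium and 479 UMIs (391 scaled) in WT epithelium, a ratio of 1.13 (1.00 to 1.28). H2-Ab1, the beta chain that pairs with H2-Aa, stood apart from its partner. It had 367 UMIs (277 scaled) in KO epithelium and 361 UMIs (295 scaled) in WT epithelium, a ratio of 0.938 (0.809 to 1.09), and its log2 ratio of -0.09 turned to 0.01 when ratios were centred on the median gene. Over the 4 class II genes the summed scaled level was 1235 in KO epithelium and 1038 in WT epithelium, a ratio of 1.19 (1.11 to 1.28).

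A gene was called where its adjusted p-value, as the authors deposited it, lay under 0.05. None of the 7 was called in this comparison, against 0.12% of its 5811 genes (7 genes). Adjusted p-values in the authors' deposited table were 0.841 for B2m and 1 for each of the other 6, and a p-value that misses the threshold does not show that the genotypes were alike. The median gene of the table had a log2 ratio of -0.10, and relative to it the class I sum was higher in KO epithelium by 0.71. Ratios at least as large as that of B2m were found for 2.37% of genes, and for H2-K1, H2-D1, H2-Aa and H2-Eb1 the share lay between 3.36% and 4.30%. It was 16.7% for Cd74 and 48.0% for H2-Ab1. B2m thus lay in the upper few percent of pooled ratios in a table with nearly no calls.

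**Figure D1:**
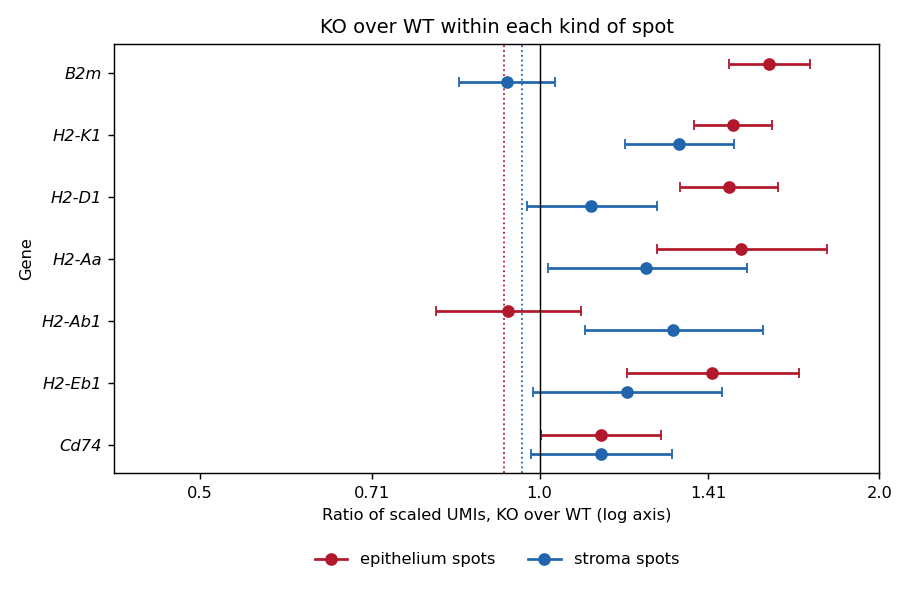
Ratio of scaled UMIs of each gene, KO over WT, on a log axis, with exact 95% counting intervals, in epithelium spots (red) and stroma spots (blue). Dotted lines mark the median gene of each table. In epithelium B2m, H2-K1, H2-D1, H2-Aa and H2-Eb1 lie between 1.42 and 1.60 and H2-Ab1 at 0.938, while in stroma B2m lies at 0.935 and H2-K1 highest at 1.33.

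In stroma, KO against WT, the order of the genes was another. H2-K1 had 1180 UMIs (1218 scaled) in KO stroma and 441 UMIs (916 scaled) in WT stroma, a ratio of 1.33 (1.19 to 1.49). H2-D1 had 731 UMIs (755 scaled) in KO stroma against 327 UMIs (679 scaled) in WT stroma, a ratio of 1.11 (0.974 to 1.27). B2m had 1189 UMIs (1228 scaled) in KO stroma against 632 UMIs (1313 scaled) in WT stroma, a ratio of 0.935 (0.848 to 1.03). The light chain and the heavy chain H2-K1 thus had ratios on opposite sides of 1 in stroma, and the interval of B2m included 1.

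Among the class II genes in stroma, H2-Ab1 had 441 UMIs (455 scaled) in KO stroma and 167 UMIs (347 scaled) in WT stroma, a ratio of 1.31 (1.10 to 1.58). H2-Aa had 345 UMIs (356 scaled) in KO stroma and 138 UMIs (287 scaled) in WT stroma, a ratio of 1.24 (1.02 to 1.52). H2-Eb1 had 370 UMIs (382 scaled) in KO stroma against 154 UMIs (319.9 scaled) in WT stroma, a ratio of 1.19 (0.987 to 1.45). All 4 class II ratios in stroma were above 1 and close to each other. Cd74 had 627 UMIs (647 scaled) in KO stroma against 275 UMIs (571 scaled) in WT stroma, a ratio of 1.13 (0.982 to 1.31). In scaled UMIs, the class I sum was 3201 for KO stroma against 2908 for WT stroma, a ratio of 1.10 (1.03 to 1.17), and the class II sum 1841 for KO stroma against 1525 for WT stroma, a ratio of 1.21 (1.11 to 1.32). None of the 7 was called, against 1.51% of the 1191 genes in this comparison, and the authors' deposited table gives an adjusted p-value of 1 for each. By relative size, KO stroma was 2.01 times WT stroma, the pool that held the fewest UMIs of each gene.

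Between the kinds of spot, the KO over WT ratio of B2m in epithelium was 1.71 times that in stroma (1.50 to 1.94), and that of H2-D1 was 1.32 times (1.12 to 1.56). For H2-Ab1 it was 0.715 times (0.564 to 0.905), so this class II chain had its higher genotype ratio in stroma. The intervals for H2-K1 (1.12, 0.972 to 1.28), H2-Aa (1.21, 0.927 to 1.59), H2-Eb1 (1.19, 0.916 to 1.55) and Cd74 (1.00, 0.826 to 1.21) included 1. Over the class sums it was 1.38 (1.27 to 1.50) for class I and 0.986 (0.879 to 1.11) for class II. These intervals hold for the pooled molecules, and the difference was not tested between animals.

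The second question was where in the uterus the genes were found, as epithelium over stroma in each genotype. B2m was lower in WT epithelium, with 740.3 scaled UMIs against 1313 in WT stroma, a ratio of 0.564 (0.509 to 0.625), so that its level in WT stroma was 1.77 times that in epithelium (1.60 to 1.96). The authors' deposited table gives it an adjusted p-value of 0.00206, and B2m was the only 1 of the 7 called in any of the 4 comparisons. This comparison called 28.8% of its 1769 genes, and 15.7% as lower in epithelium, so 1 of 7 is no more than its background. H2-Eb1 had 177 scaled UMIs in WT epithelium and 319.9 in WT stroma, a ratio of 0.552 (0.447 to 0.683), and the authors' deposited table gives 0.0512, just above the threshold of 0.05. The fold of H2-Eb1 was thus as large as that of B2m with fewer molecules behind it.

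The other genes had ratios below 1 in the WT comparison without a call. H2-K1 had 0.883 (0.789 to 0.990) and H2-D1 0.782 (0.684 to 0.896), with adjusted p-values of 0.845 and 0.421 in the authors' deposited table. H2-Aa had 0.610 (0.490 to 0.761) and Cd74 0.685 (0.590 to 0.798), with adjusted p-values of 0.183 and 0.373 in the authors' deposited table. H2-Ab1 had 0.850 (0.706 to 1.03), the only interval of the 7 that included 1, with 0.860 in the authors' deposited table. The 7 genes were all lower in the WT epithelium pool than in the WT stroma pool, by differing amounts within each class.

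In KO uteri the classes separated. The class I ratios of epithelium over stroma were 0.964 (0.893 to 1.04) for B2m, 0.985 (0.913 to 1.06) for H2-K1 and 1.04 (0.941 to 1.14) for H2-D1. The class II ratios were 0.741 (0.637 to 0.862) for H2-Aa, 0.608 (0.528 to 0.700) for H2-Ab1, 0.657 (0.565 to 0.764) for H2-Eb1 and 0.685 (0.611 to 0.768) for Cd74. No class II interval reached a class I interval. None of the 7 was called, against 9.88% of the 2744 genes in this comparison. The adjusted p-values in the authors' deposited table were 1 for each class I gene, 0.608 for H2-Aa, 0.145 for H2-Ab1, 0.341 for H2-Eb1 and 0.359 for Cd74. Each pool enters 2 of the comparisons, so the low class I level of the WT epithelium pool is seen both in the genotype ratio in epithelium and in the compartment ratio of WT uteri.

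**Figure D2:**
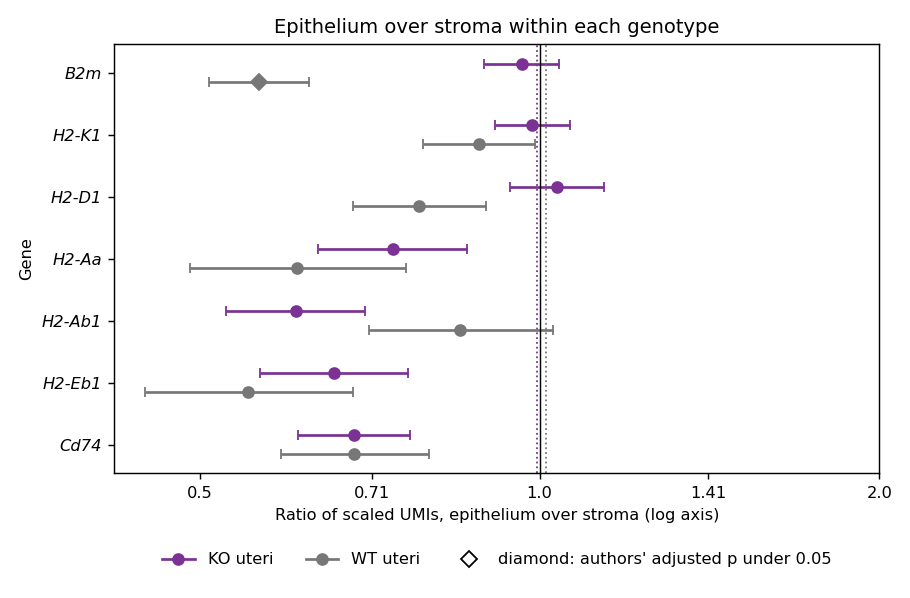
Ratio of scaled UMIs of each gene, epithelium over stroma, on a log axis, with exact 95% counting intervals, in KO uteri (purple) and WT uteri (grey). The diamond marks B2m in WT uteri at 0.564, the value with an adjusted p-value under 0.05 in the authors' deposited table, and the class I genes in KO uteri lie between 0.964 and 1.04.

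Ordered over the 4 pools, the scaled level of B2m was highest in WT stroma, then KO stroma and KO epithelium, with neighbouring intervals that included 1, and WT epithelium stood below them. H2-K1 was highest in KO stroma and KO epithelium, which did not differ beyond counting error, then lower in WT stroma and lowest in WT epithelium. H2-D1 ran from KO epithelium through KO stroma and WT stroma, with no neighbours apart, to WT epithelium, which was apart. WT epithelium was the lowest pool for all 3 class I genes. H2-Aa, H2-Eb1 and Cd74 ran from KO stroma through WT stroma and KO epithelium to WT epithelium. The stroma pools of H2-Eb1 and Cd74 did not differ beyond counting error, nor did WT stroma and KO epithelium for H2-Aa. H2-Ab1 had the same 2 stroma pools on top, though its WT stroma and WT epithelium did not differ beyond counting error. KO epithelium was its lowest pool, with an interval against WT epithelium that included 1.

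**Figure D3:**
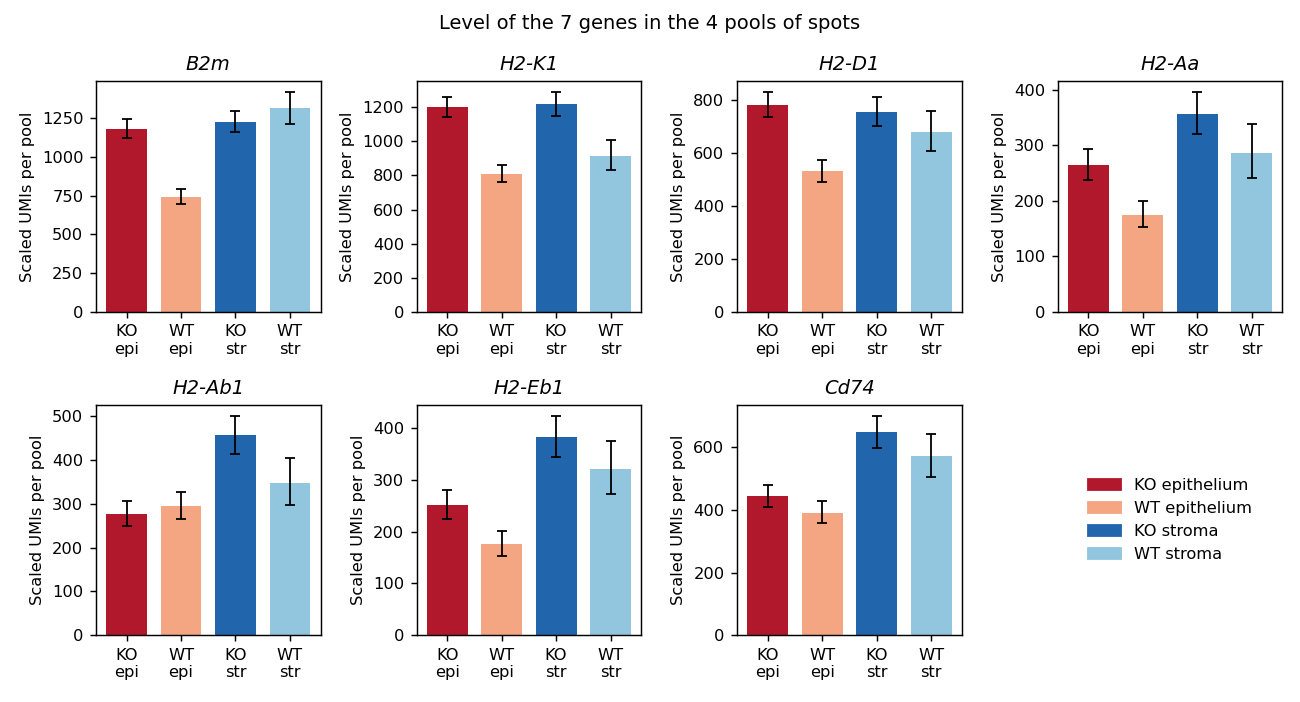
Scaled UMIs of each gene in the pools of KO epithelium, WT epithelium, KO stroma and WT stroma, with exact 95% Poisson intervals and each axis from 0. WT epithelium is the lowest pool for 6 of the 7 genes, and KO epithelium is the lowest for H2-Ab1 at 277 scaled UMIs.

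Since both genes of a pair are counted in the same pool, their ratio does not depend on the pool's depth, and it is read here only between pools. H2-Ab1 with H2-Aa, and each heavy chain with B2m, are partners of 1 molecule, and the others are further pairs within a class. The UMIs of H2-Ab1 per UMI of H2-Aa were 1.05 (0.903 to 1.22) in KO epithelium and 1.69 (1.42 to 2.01) in WT epithelium, and they were 1.28 (1.11 to 1.48) in KO stroma and 1.21 (0.960 to 1.53) in WT stroma. WT epithelium thus had the highest beta to alpha ratio, and the ratio in KO epithelium was 0.622 times it (0.494 to 0.782). H2-Ab1 per H2-Eb1 showed the same order in epithelium, with 1.10 (0.948 to 1.28) in KO epithelium and 1.67 (1.41 to 1.99) in WT epithelium. H2-Eb1 per H2-Aa stayed between 0.951 and 1.12 over the 4 pools, and in none of the 4 comparisons was its change beyond counting error. Per UMI of either other chain, H2-Ab1 was thus highest in WT epithelium. Against Cd74 it was not beyond counting error, since H2-Ab1 per Cd74 was 0.624 in KO epithelium and 0.754 in WT epithelium, a change of 0.828 times (0.683 to 1.00).

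For class I, H2-K1 per B2m was 1.01 (0.946 to 1.09) in KO epithelium and 1.09 (0.998 to 1.20) in WT epithelium, against 0.992 (0.915 to 1.08) in KO stroma and 0.698 (0.616 to 0.789) in WT stroma. The WT stroma pool stood apart from the other pools, with a ratio in KO stroma 1.42 times that in WT stroma (1.23 to 1.65). H2-D1 per B2m was 0.660 in KO against 0.717 in WT epithelium, and 0.615 in KO against 0.517 in WT stroma, again lowest in WT stroma. H2-D1 per H2-K1 was 0.651 in KO against 0.657 in WT epithelium, and 0.619 in KO against 0.741 in WT stroma. Of the 50-base words in the last 500 bases of their protein-coding transcripts, 9.60% of those of H2-K1 and 8.92% of those of H2-D1 also occurred in another gene, and 0% for the other 5 genes. The split of molecules between the heavy chains is therefore less certain than the other counts.

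**Figure D4:**
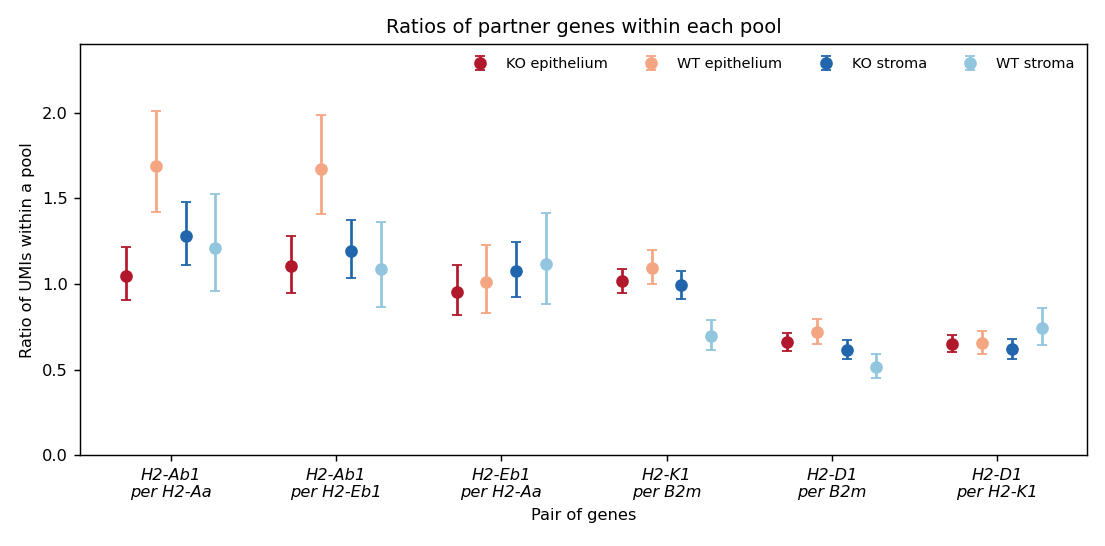
Ratio of the UMIs of pairs of genes of the same class within each pool, with exact 95% counting intervals. Only H2-Ab1 with H2-Aa and the heavy chains with B2m are partners of 1 molecule. WT epithelium is highest for H2-Ab1 per H2-Aa at 1.69 and per H2-Eb1 at 1.67, and WT stroma is lowest for H2-K1 per B2m at 0.698.

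The tables listed 4 of 16 further genes of the class I list between KO and WT epithelium, and none was called. H2-Q6 and H2-Q7, nonclassical class I genes whose sequences are nearly alike so that their reads may be shared, had ratios of 2.17 (1.41 to 3.42) and 1.61 (1.21 to 2.15). H2-T23, the heavy chain of Qa-1, had 1.52 (1.11 to 2.09). H2-Ke6 had 0.894 (0.667 to 1.20), and despite its symbol it encodes a steroid dehydrogenase and no class I chain. H2-Q7 was lower in WT epithelium with 64.6 scaled UMIs against 177 in WT stroma, a ratio of 0.366 (0.266 to 0.503) and an adjusted p-value of 0.000123 in the authors' deposited table. In stroma H2-Q7 had 134 scaled UMIs in KO and 177 in WT, a ratio of 0.760 (0.574 to 1.01), below 1 as for B2m.

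Of 14 genes that cut, carry and load class I peptides, 12 were listed between KO and WT epithelium, with 0 called and a median log2 ratio of 0.23 beside -0.10 for all genes. The immunoproteasome subunits Psmb8 and Psmb9 had ratios of 1.43 (1.11 to 1.85) and 1.45 (1.01 to 2.10). The peptide transporter genes Tap1 and Tap2 had 1.25 (0.865 to 1.81) and 1.28 (0.884 to 1.88), on 73 and 71 UMIs in KO epithelium and 54 and 51 in WT epithelium. The general chaperone Calr had 0.947 (0.854 to 1.05). In stroma 5 of the 14 were listed with a median log2 ratio of 0.01 and 0 called, with Tapbp, the tapasin gene, at 1.60 (1.24 to 2.07). Between epithelium and stroma, 0 of 8 listed were called in KO uteri and 0 of 6 in WT uteri. Of all genes in these comparisons, 9.88% and 28.8% were called. Of 14 further genes of class II loading and control, Ifi30, a lysosomal thiol reductase, and Lgmn, a lysosomal protease, were listed, with ratios in epithelium of 0.966 (0.752 to 1.24) and 1.15 (0.819 to 1.61).

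Of 37 genes of interferon signalling and response, 17 were listed between KO and WT epithelium, with 0 called, 14 of them above a ratio of 1, and a median log2 ratio of 0.13. The interferon-induced genes Irgm1 and Bst2 had ratios of 2.21 (1.40 to 3.57) and 1.94 (1.58 to 2.38), with adjusted p-values of 0.687 and 0.461 in the authors' deposited table. The receptor kinase Jak2 had 0.730 (0.620 to 0.859). In stroma 7 were listed, with 0 called and a median of -0.06, and Bst2 had 0.959 (0.747 to 1.24) there. Between compartments, the antiviral membrane genes Ifitm3 and Ifitm1 were higher in KO epithelium than in KO stroma, with ratios of 1.81 and 1.74, and 2 of 10 listed were called, against 9.88% of all genes in that comparison. In WT uteri Jak2 (2.68), Ifitm3 (2.24) and Ifitm1 (1.89) were higher in epithelium and Bst2 (0.566) and Jak1 (0.575) lower, 5 of 8 listed, against 28.8% of all genes in that comparison. All 5 carry an adjusted p-value under 0.05 in the authors' deposited table, between 0.000112 and 0.0482.

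**Figure D5:**
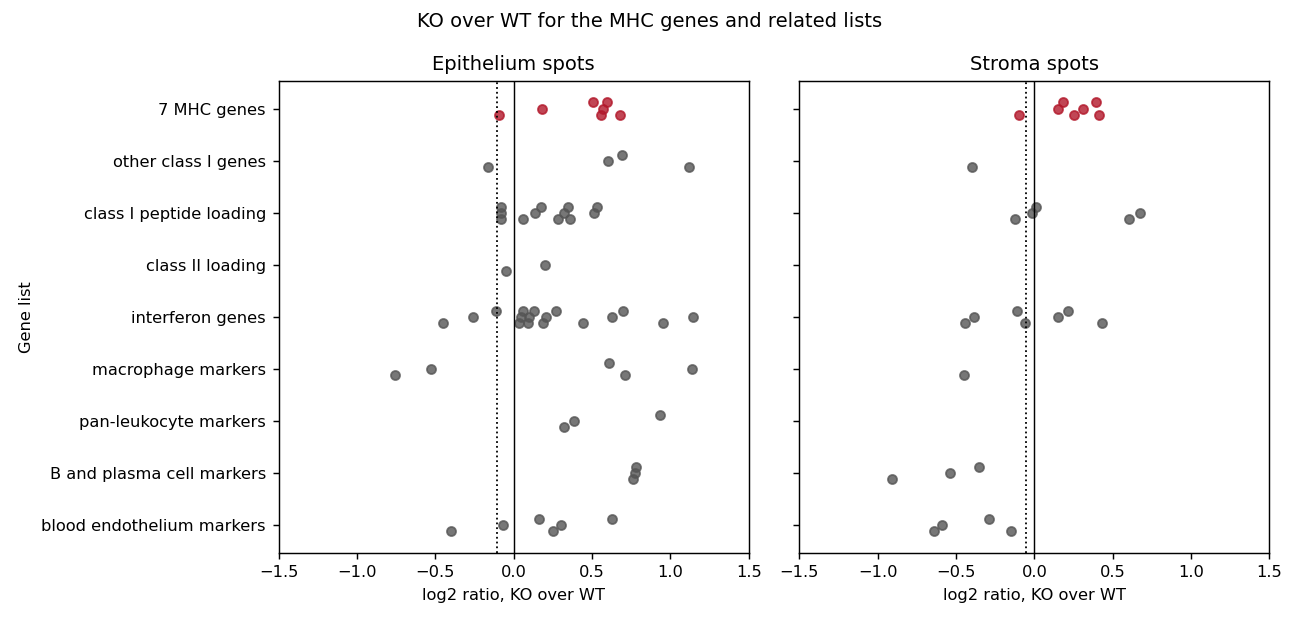
Log2 ratio of pooled levels, KO over WT, for the 7 MHC genes (red) and for the listed members of related gene lists and immune and endothelial marker lists (grey), in epithelium spots and stroma spots. Dotted lines mark the median gene. The 3 plasma cell genes lie between 0.76 and 0.78 in epithelium and below 0 in stroma.

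Markers of the cells that carry class II were sparse. Of 19 macrophage and monocyte markers 5 were listed between KO and WT epithelium, with 0 called and a median log2 ratio of 0.61, and C1qb, a complement gene of macrophages, had 93 UMIs in KO epithelium against 39 in WT epithelium, a ratio of 2.20 (1.50 to 3.29). Tyrobp and Fcer1g, signalling adaptors of myeloid cells, had 1.64 (1.20 to 2.25) and 1.52 (1.03 to 2.28), while Lyz2 had 0.694 (0.562 to 0.856) and Cd14 0.592 (0.470 to 0.743). Over Lyz2 and Cd14, the markers with a value in all 4 pools, the summed scaled level was 217 in KO against 337 in WT epithelium, and 300.4 in KO against 399 in WT stroma. In stroma the only listed marker, Lyz2, had 0.731 (0.601 to 0.892). Cd14 was higher in epithelium than in stroma in KO uteri (2.65) and WT uteri (4.33), and Lyz2 (0.459) and C1qa (0.454) were lower in KO epithelium. These calls have adjusted p-values of 0.00263, 7.34e-06, 0.0216 and 0.0365 in the authors' deposited table. In KO uteri 5 markers were listed, 1 called higher and 2 lower, against 9.88% of all genes called. In WT uteri 2 were listed and 1 was called, against 28.8% of all genes.

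Of 8 pan-leukocyte markers 3 were listed in epithelium, Cd52, Laptm5 and Lcp1, with ratios of 1.91 (1.39 to 2.65), 1.30 (0.951 to 1.80) and 1.25 (0.890 to 1.76) and 0 called. Of 11 dendritic cell markers only Cst3, which many cells express, was listed, with 1.19 (1.07 to 1.32) in epithelium and 0.983 (0.869 to 1.11) in stroma. None of 12 T and NK cell markers was listed. The B cell and plasma cell list had 3 of 9 listed, the antibody genes Igha, Igkc and Jchain, with ratios of 1.70, 1.71 and 1.71 in epithelium and 0.689, 0.783 and 0.532 in stroma, none called. Their summed scaled level was 6991 in KO against 4106 in WT epithelium, and 11702 in KO against 16636 in WT stroma. In that comparison 15.7% of all genes were called lower in epithelium, and so were these 3, in WT epithelium against WT stroma. They had ratios of 0.251, 0.267 and 0.169 and adjusted p-values of 5.44e-05, 0.00104 and 4.33e-11 in the authors' deposited table. Their sum had the same order over the 4 pools as B2m, and so had the sums of the endometrial stroma and blood endothelium markers given below. None of the other MHC genes had this order. By scaled level KO stroma was highest for H2-K1 and each class II gene, and KO epithelium for H2-D1. Among the 3 upper pools of B2m, only neighbours were compared, and these did not differ beyond counting error. The part of these cell markers in the MHC ratios was not tested.

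Markers of the compartments also differed between the pools. All 16 uterine epithelium markers were listed between KO and WT epithelium, with 0 called. They were called higher in epithelium for 14 of 14 listed in KO uteri (among them Calb1, Wnt7a and Cldn3) and 10 of 10 in WT uteri (among them Calb1, Krt19 and Cldn3). Of all genes in these comparisons, 9.88% in KO uteri and 28.8% in WT uteri were called in either direction. The median log2 ratio was 1.53 over the 14 listed in KO uteri and 2.95 over the 10 listed in WT uteri. For the 10 markers with a value in all 4 pools, the summed scaled level was 4197 in KO against 4914 in WT epithelium, and 1418 in KO against 629 in WT stroma. That of 13 endometrial stroma markers was 7097 in KO against 5274 in WT epithelium, and 15139 in KO against 18321 in WT stroma. Of these 13, 6 were called lower in KO epithelium, where 9.88% of all genes were called in either direction. In WT epithelium 10 were called lower, where 15.7% of all genes were. Sfrp4, Igfbp3, Cxcl12 and Dcn were foremost in each. Between KO and WT stroma 12 were listed and Cxcl12 was called lower, against 1.51% of all genes called in either direction. The summed marker contrast between the kinds of spot was thus smaller in KO uteri, as was the class I contrast. The class II sum had an epithelium over stroma ratio of 0.671 (0.627 to 0.718) in KO uteri and 0.681 (0.621 to 0.746) in WT uteri. Its genes differed in direction. H2-Ab1 had 0.608 in KO and 0.850 in WT uteri, H2-Aa 0.741 and 0.610, H2-Eb1 0.657 and 0.552, and Cd74 0.685 in both. The part of mixed spots was not tested. How spots were named is not given in the sources used here, and if any gene guided the naming, its difference between epithelium and stroma is no finding.

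Blood endothelium markers, of which 6 of 12 were listed in epithelium, had a median log2 ratio of 0.21 there and -0.44 over 4 in stroma, with 0 called in either. Cldn5, Egfl7, Esam and Emcn were called lower in KO epithelium than in KO stroma, of 6 listed, where 9.88% of all genes were called in either direction. In WT uteri Cldn5, Esam, Egfl7 and Cdh5, the 4 listed, were called lower in epithelium, where 15.7% of all genes were. The summed scaled level of 4 endothelial markers was 347 in KO against 308 in WT epithelium, and 722 in KO against 956 in WT stroma. Of 10 smooth muscle markers, 8 were listed between KO and WT epithelium with 0 called. In stroma 7 were listed, and Myh11, Acta2, Tagln and Cald1 were called lower in KO than in WT. Of all genes in that stroma comparison, 1.51% were called in either direction. Between compartments, Tagln, Acta2 and Mylk were called lower in KO epithelium, of 6 listed, where 9.88% of all genes were called in either direction. In WT epithelium 7 of 8 listed markers were called lower, with Cald1, Myh11, Mylk and Acta2 foremost, where 15.7% of all genes were. For the 7 smooth muscle markers with a value in all 4 pools, the summed scaled level was 791 in KO against 1119 in WT epithelium, and 1555 in KO against 3213 in WT stroma. The part of these markers in the MHC ratios was not tested.

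By pattern over the 4 pools, 1697 genes with at least 400 UMIs were compared with the mean class I pattern and the mean class II pattern as log2 levels centred on their own mean. Nearest to class I were mt-Co2, a mitochondrial cytochrome oxidase gene, with a root mean square difference of 0.04, Tppp3 with 0.06 and Stt3a, an oligosaccharyltransferase gene, with 0.08. Nearest to class II were Islr with 0.03, Tns2 with 0.04 and Cd248 with 0.04. The class members themselves lay at 0.04 for H2-D1, 0.11 for H2-K1 and 0.14 for B2m, and at 0.06 for Cd74, 0.11 for H2-Aa, 0.11 for H2-Eb1 and 0.15 for H2-Ab1. The likeness rests on 4 pools that share their depth with all genes.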

How the data were processed

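Visium data of 4 KO and 4 WT uteri were processed on GRCm38, per the submitters' processing notes. Which aligner, spot naming and statistical test were used is not given in the sources used here. Per the file headers, the authors deposited 4 tables with an average per pool (a normalized signal over all animals of a genotype), a log2 fold change and an adjusted p-value. Genes with an average of at most 1 in both pools are not in a table. What spread, between spots or animals, stands behind the authors' p-values is not known.

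The sizes of the pools were solved from the deposited log2 fold changes, which add 1 to each term. Multiplied by these sizes, 100% of the averages of each table came out whole to within 0.01, and the products are the UMIs given. Sums of a pool differed between its tables for 0 genes. Ratios carry no pseudocount, and their 95% intervals are exact conditional binomial intervals (Clopper-Pearson for 1 gene, conditional odds ratio for 4 sums) that cover counting error only. Calls are genes whose adjusted p-value, as deposited, lay under 0.05. No test was run on the pools. The recovery was tested on simulated data.

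The members and the 13 gene lists were chosen with earlier results of these data known. The 7 members are always named, with up to 4 called genes per list, direction and table and the 3 genes nearest in pattern to each class. Other genes named, and the genes of the MHC region, were chosen after their values were seen, and some genes of the lists are not reported here. Gene positions are from GENCODE release M21 on GRCm38, and promoters from RefSeq (GRCm38.p6). Alternatives were an adjusted p-value under 0.01, an absolute log2 fold of 1 or more, leaving out the lowest 25% of genes, centring on the median gene, scaling by the total over shared genes and the authors' deposited log2 values. Scripts used Python 3.11.15, NumPy 2.4.6, pandas 2.3.3, SciPy 1.17.1 and matplotlib 3.10.9.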

Additional observations from a re-analysis of the deposited data

How the results depend on the processing

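Centred on the median gene, the log2 ratio of the class I sum in KO over WT epithelium was 0.71, against 0.61 as reported, a move beyond its counting interval and in the same direction, and centring moved no other class sum or gene beyond its interval. Requiring also an absolute log2 fold of at least 1 left 0 of the 7 genes called in WT epithelium against WT stroma, where B2m had been 1 call. The other alternatives gave the same call counts and kept the log2 ratios of genes and class sums within their counting intervals: a threshold of 0.01, removing the 25% of genes with the lowest levels, scaling by the total over genes in all 4 tables and the authors' deposited log2 values. No paired analysis was possible because each deposited value already sums 4 animals, so the litters that pair the females, per the labels, could not enter. For the same cause no animal could be left out in turn. Depth limited the class II genes most, with 138 to 167 UMIs for H2-Aa, H2-Ab1 and H2-Eb1 in WT stroma.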

Other observations

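Of the 7 genes, 5 lie in the MHC on chromosome 17 of GRCm38, from H2-K1 (33996017 to 34000347, minus strand) through H2-Ab1 (34257689 to 34269419, plus), H2-Aa (34282744 to 34287823, minus) and H2-Eb1 (34305867 to 34316674, plus) to H2-D1 (35262730 to 35267499, plus). B2m lies on chromosome 2 (122147686 to 122153083, plus strand) and Cd74 on chromosome 18 (60803848 to 60812652, plus), and all 7 are annotated as protein-coding. Between H2-K1 and H2-D1, 31 other genes were listed in KO against WT epithelium, with 0 called, against 0.12% of all genes. Of the 31, 14 had a log2 ratio above 0 and 17 below, with a median of -0.06 beside -0.10 for all genes of the table. The immunoproteasome genes Psmb8 and Psmb9, described above, are among them, and Nelfe, a subunit of the negative elongation factor, had the lowest log2 ratio with -0.45. Tnxb, an extracellular matrix gene, had the highest with 1.34, from 255 UMIs in KO epithelium against 93 in WT epithelium (adjusted p-value of 0.0840 in the authors' deposited table), a larger ratio than any of the 7 genes. In stroma 6 neighbours were listed with a median log2 ratio of 0.36, the highest being Clic1 with 1.13 and Tnxb with 0.88. Of these neighbours 0 were called, against 1.51% of all genes in that comparison. In WT epithelium against WT stroma 10 neighbours were listed, 9 with a log2 ratio above 0, unlike the 5 MHC genes of the region. Clic1, an intracellular chloride channel gene, was the only 1 called, with a log2 ratio of 0.89 and an adjusted p-value of 0.0357 in the authors' deposited table. Of all genes in that comparison 28.8% were called, so 1 of 10 is no more than its background.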
